A study of Mus musculus with 6 samples.

Results

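The clock output and ROR genes examined here were Dbp, Tef, Hlf, Nfil3, Bhlhe40, Bhlhe41 and Rora, taken by gene symbol. All 7 were found among the 22609 genes listed for each sample, and all 7 had enough reads to be tested with 13117 genes in all. The question the data address is how these genes were expressed in primary adipocytes given miR-182-5p mimic compared with mimic control. The cells were grown from the stromal vascular fraction of inguinal fat (iWAT) of male C57BL6 mice aged 3 weeks per the sample labels, and were differentiated in culture. There were 2 groups of 3 samples, labelled as control vector and as miR182 overexpression, and the labels give no other allele or agent for either group. Each sample had 25869810 to 28796712 reads on genes. The labels name electroporation as the route of transfection, whereas the study's methods name a lipid reagent, a mimic and an older age of the mice. Neither source gives the hours between transfection or a change of medium and harvest, so the position of the cultures in a daily cycle is not known here. Neither says whether the 3 samples of a group came from separate mice or dishes. The p values below then set the difference between groups against the spread between these samples, which may be technical.

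The circadian clock is a feedback loop of transcription. The activators BMAL1 (encoded by Arntl) and CLOCK switch on genes that carry an E-box in their promoters, and the PER and CRY proteins made from some of these genes shut the activators off again. Further factors carry the rhythm outward. The PAR bZIP activators DBP, TEF and HLF bind an element called the D-box, and NFIL3 (also named E4BP4) binds the same element and represses it. DEC1 (Bhlhe40) and DEC2 (Bhlhe41) bind E-boxes and repress them, and ROR proteins activate a further element, the RORE, on which the nuclear receptor REV-ERBα (Nr1d1) represses. In adipose tissue these factors are known to give daily rhythm to lipid and glucose metabolism.

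The miRNA is shown first because the groups are labelled by it. RefSeq (GRCm38.p6) places mature miR-182-5p at chr6:30165962-30165986 on the minus strand. The study's methods print, under the name miR-182-5p, a mature sequence that opens as the miR-30 family does. A member of that family (miR-30c-5p, chr1:23291714-23291736, plus strand) is therefore set beside it. This member is not the printed sequence itself, which has the same bases 2 to 8 but a different end. The methods are thus not uniform on the sequence. They name a miR-182-5p mimic, and the target site they print for a reporter assay is complementary to miR-182-5p, not to miR-30c-5p. That site pairs with only part of bases 2 to 8 of miR-182-5p and with bases after them. In that assay, the paper reports, the mimic lowered a reporter with the Nr1d1 site but not one with the site mutated. Which sequence the mimic carried was not tested in the counts, and miR-182-5p mimic is used here as the study's name for the group. Capitals mark bases 2 to 8, the seed, and the 2 seeds differ.
miR-182-5p: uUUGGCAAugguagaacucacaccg
miR-30c-5p: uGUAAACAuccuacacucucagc

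A match to the miR-182-5p seed, TTGCCAA, occurred in the longest annotated 3′-UTR of 2 of the 7 genes, Hlf and Bhlhe41, once in each. Of all 11439 genes tested with an annotated 3′-UTR, 12.7% held this match. Dbp, Tef, Nfil3, Bhlhe40 and Rora held 0 in theirs. A longer 3′-UTR has more room for a match, and those of Hlf and Bhlhe41 have 4223 and 4609 bases. A match to bases 2 to 7 followed by an A occurred 2 times in Hlf, the site below included, and in none of the others. The coding sequences of Hlf and Rora each held 1 match to TTGCCAA. So did that of Nr1d1, the gene of the reporter assay, whose 3′-UTR and 5′-UTR held 0. The Hlf match was followed by an A, opposite position 1 of the miRNA, and the Bhlhe41 match was not. Both genes lie on the minus strand, and the sites are at chr11:90336798-90336804 and chr6:145861754-145861760 of GRCm38. The capitals below mark the match.
Hlf: ttaatgcatttTTGCCAAaatctgtgttg
Bhlhe41: tttttagtttgTTGCCAAggtagcactga

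A match to the miR-30 seed, TGTTTAC, occurred once in Hlf, once in Bhlhe41 and 3 times in Rora, against 16.4% of tested genes with at least 1 match. Of the 3 in Rora, 2 were followed by an A, at chr9:69379782-69379788 and chr9:69385117-69385123 on the plus strand. These are shown because Rora has the longest 3′-UTR of the 7 genes, 9285 bases.
Rora, first site: atttatgctgcTGTTTACaaaaacaaaaa
Rora, second site: tccatgttctcTGTTTACatcctgtgtgt
A match is a description of the sequence only, and Dbp and Nfil3, the genes that moved most clearly below, held neither match in 3′-UTRs of 323 and 269 bases.

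Dbp and Nfil3, whose products act on the D-box in opposite ways, moved in opposite directions. With miR-182-5p mimic, Dbp fell by 31.9% and Nfil3 rose by 31.0%, and in both genes every mimic sample lay beyond every control sample. Tef, the most abundant PAR bZIP gene, fell by 5.92%, and its adjusted p was under 0.05 in only 6 of 13 alternatives. Hlf, Bhlhe40, Bhlhe41 and Rora did not pass the test. Expression was tested with edgeR's quasi-likelihood test and Benjamini-Hochberg adjustment over all 13117 genes. A gene is said below to rise or fall where its adjusted p was under 0.05, and to be called where it also changed by at least 1.5-fold, a log2 fold change of 0.585. By the adjusted p alone, 3 of the 7 genes passed (1 higher, 2 lower), a share of 42.9% where 46.7% of all genes tested passed (23.2% higher, 23.5% lower). That share is close to the background and is not a result about these genes as a set. None of the 7 was called, against 7.45% of all genes (1.97% higher, 5.48% lower). At an unadjusted p under 0.05, 5 of the 7 passed, against 53.1% of all genes, and 0 of the 7 with 1.5-fold, against 7.97%, and DESeq2 and limma-voom also called 0. The groups did not overlap for 4 of the 7 genes (1 higher, 3 lower), where 54.8% of all genes had groups that did not overlap (27.3% higher, 27.5% lower). The median log2 fold change was -0.05 over the 7 genes and -0.0043 over all genes tested.

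**Figure D1:**
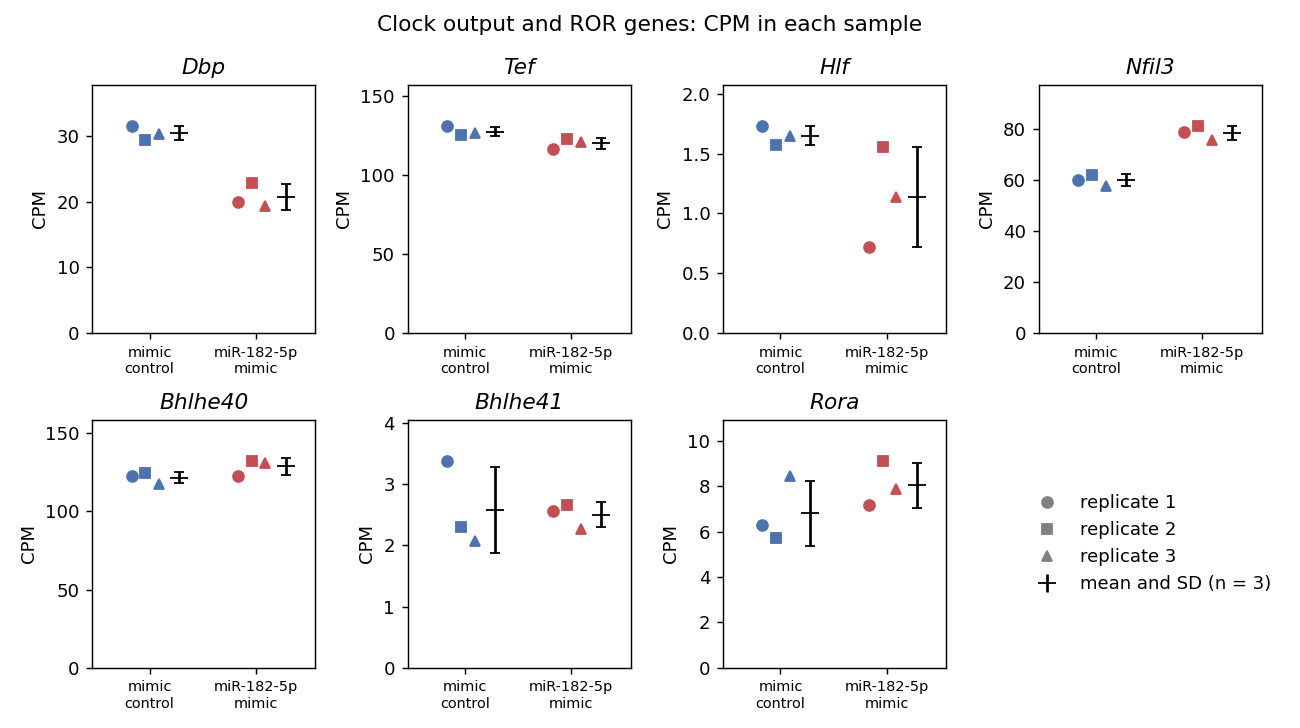
CPM (reads of the gene in 1000000 of the scaled library) of the 7 genes in each sample, with mimic control in blue and miR-182-5p mimic in red. Symbols give the replicate number in the labels, and the bar beside them the mean and SD (n = 3). Dbp, Tef and Hlf lay lower and Nfil3 higher in all 3 mimic samples, and the groups overlap for Bhlhe40, Bhlhe41 and Rora.

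Dbp encodes the D-box binding activator whose mRNA is among the most strongly rhythmic in many tissues. Its locus is chr7:45705088-45710203 (GRCm38, plus strand). The control samples held 803, 769 and 794 Dbp reads and the mimic samples 583, 605 and 547. Scaled to the libraries, these were 31.5, 29.4 and 30.4 CPM against 19.97, 23.0 and 19.4 CPM. The 3 mimic samples were all below the control samples, and the gap between the groups was wider than the range within either. The mean fell from 30.5 ± 1.05 to 20.8 ± 1.92 CPM (SD, n = 3 each). The log2 fold change was -0.55 (SE 0.065, 95% CI -0.69 to -0.41, adjusted p = 9.14e-06 from the edgeR test), which is just short of the 1.5-fold line. Dbp ranked at 1019 of 13117 genes by p value. Without miR-182-5p mimic replicate 2, the mimic sample with the most Dbp, the log2 fold change was -0.63 and Dbp was called. Of the 2993 exon bases of Dbp, 539 are also exon of Sphk2 on the opposite strand, and whether the counting used the strand is not given in the sources used here.

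Tef encodes thyrotroph embryonic factor, a PAR bZIP activator with a shallower daily rhythm than DBP in most tissues. Its locus is chr15:81802421-81826863 (plus strand). Control samples held 3328, 3267 and 3300 Tef reads and mimic samples, of partly larger libraries, 3394, 3230 and 3411, or 131, 125 and 126 CPM against 116, 123 and 121 CPM. The mimic samples lay below the control samples by a narrow gap. The mean went from 127 ± 2.95 to 120 ± 3.27 CPM (SD, n = 3), and the log2 fold change was -0.09 (SE 0.032, 95% CI -0.16 to -0.02, adjusted p = 0.0342 from the edgeR test). Over the alternatives the adjusted p ranged from 0.0313 to 0.198. Leaving out control replicate 1 or 3, or mimic replicate 1 or 3, gave adjusted p values of 0.134, 0.0632, 0.119 and 0.061.

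Hlf encodes hepatic leukemia factor, the third PAR bZIP activator. Its locus is chr11:90336536-90390895 (minus strand). Only 44, 41 and 43 Hlf reads were counted in the control samples and 21, 41 and 32 in the mimic samples, or 1.73, 1.57 and 1.65 CPM against 0.719, 1.56 and 1.13 CPM. The control samples were close together, whereas the mimic samples spread over a wider range and replicate 2 reached almost the lowest control sample. The log2 fold change was -0.55 (SE 0.24, 95% CI -1.06 to -0.04), the same size as for Dbp, with an adjusted p of 0.0742 from the edgeR test. The value rested on single samples. It was -0.83 without mimic replicate 2, where Hlf was called with an adjusted p of 0.016, and -0.30 without mimic replicate 1, with an adjusted p of 0.294. Hlf was therefore not shown to differ at this depth.

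Nfil3 encodes the repressor that competes with DBP, TEF and HLF for the D-box, and its own promoter is a known target of ROR and REV-ERB proteins. Its locus is chr13:52967209-52981073 (minus strand). Nfil3 reads numbered 1535, 1625 and 1508 in the control samples and 2312, 2141 and 2140 in the mimic samples, or 60.3, 62.2 and 57.8 CPM against 79.2, 81.3 and 75.8 CPM. All 3 mimic samples were above all 3 control samples, with a gap wider than the range of either group. The mean rose from 60.1 ± 2.23 to 78.8 ± 2.76 CPM (SD, n = 3), and the log2 fold change was 0.39 (SE 0.04, 95% CI 0.30 to 0.48, adjusted p = 2.71e-06 from the edgeR test). Its p was the smallest of the 7 genes and ranked at 760 of 13117. The 13 alternatives gave log2 fold changes from 0.36 to 0.43, all past the adjusted p and all short of 1.5-fold.

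Because Nfil3 and Dbp act on one element, the number of Nfil3 reads per Dbp read was computed in each sample. This ratio was chosen after the values of both genes were seen, and it does not depend on how the libraries were scaled. It was 1.91, 2.11 and 1.90 in mimic control replicates 1 to 3 and 3.97, 3.54 and 3.91 in the mimic replicates. The mean was 1.97 ± 0.12 in the control group and 3.81 ± 0.233 in the mimic group (SD, n = 3 each), 1.93 times as high. Nfil3 reads per Tef read went from 0.472 ± 0.0222 to 0.657 ± 0.0274, and Dbp reads per Tef read from 0.239 ± 0.00323 to 0.173 ± 0.0135 (SD, n = 3 each). In none of these 3 ratios did the groups overlap. For the ratios with Nfil3 this follows from the single genes, whose groups already lay apart in opposite directions, and it adds no separate support. With 3 samples a group, 0.1 is the smallest two-sided p that exact permutation allows for such a ratio.

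**Figure D2:**
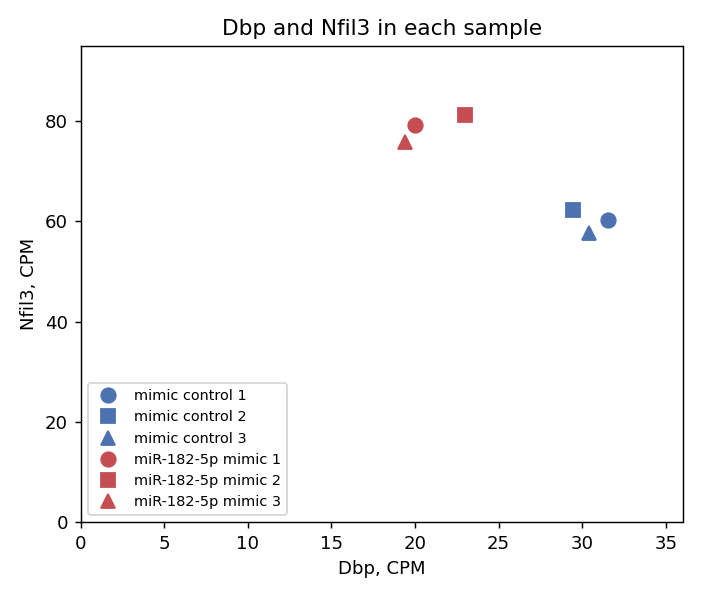
Nfil3 (CPM, vertical axis) against Dbp (CPM, horizontal axis) in each of the 6 samples, both axes starting at 0. The 3 control samples lie at 29.4 to 31.5 CPM of Dbp and 57.8 to 62.2 CPM of Nfil3, and the 3 mimic samples at 19.4 to 23.0 and 75.8 to 81.3, with no overlap on either axis.

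The E-box repressors of the DEC family were expressed at very different levels and neither passed the test. Bhlhe40 encodes DEC1, lies at chr6:108660629-108666925 (plus strand), and was an abundant transcript with 3115, 3256 and 3072 reads in the control group and 3584, 3484 and 3706 in the mimic group. In CPM these were 122, 125 and 118 against 123, 132 and 131. Mimic replicate 1 fell within the control range, so the groups overlap. The log2 fold change was 0.08 (SE 0.035, 95% CI 0.01 to 0.16) with an adjusted p of 0.0708 from the edgeR test. Without mimic replicate 1 it was 0.12 with an adjusted p of 0.00901, and with no TMM scaling 0.12 with an adjusted p of 0.0113.

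Bhlhe41 encodes DEC2, a second repressor of the same family. It lies at chr6:145858243-145865558 (minus strand) and had 86, 60 and 54 reads in the control group and 75, 70 and 64 in the mimic group. In CPM these were 3.38, 2.30 and 2.07 against 2.57, 2.66 and 2.27, so the mimic samples lay inside the control range. The log2 fold change was -0.05 (SE 0.18, adjusted p = 0.856 from the edgeR test), and its 95% CI of -0.44 to 0.35 shows how large a difference these counts could have missed. The sign changed to 0.19 without control replicate 1 and to 0.02 without mimic replicate 3. An antisense transcript of unsettled type, Gm43909, shares 1280 of its 6720 exon bases.

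Rora encodes the nuclear receptor RORα. Its long locus is chr9:68653786-69388246 (plus strand). It had 160, 149 and 220 reads in the control group and 209, 240 and 222 in the mimic group, or 6.29, 5.70 and 8.43 CPM against 7.16, 9.11 and 7.86 CPM. Control replicate 3 was higher than 2 of the 3 mimic samples. The log2 fold change was 0.24 (SE 0.13, 95% CI -0.05 to 0.52, adjusted p = 0.164 from the edgeR test). Without control replicate 3 it was 0.42 with an adjusted p of 0.0143, so the result for Rora turned on this 1 sample.

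The levels of the 7 genes were compared per kilobase of the coding transcript with the longest 3′-UTR. The reads were those of the whole gene, from all its isoforms, whereas the length was that of this 1 transcript. The isoforms present in these cells were not determined. In the control group Bhlhe40 was highest at 39.1 ± 1.14 CPM per kilobase, followed by Nfil3 at 29.7 ± 1.10, Tef at 28.9 ± 0.671 and Dbp at 16.6 ± 0.573 (SD, n = 3 each). Rora, Bhlhe41 and Hlf lay far below these, at 0.626 ± 0.132, 0.421 ± 0.114 and 0.292 ± 0.0141 CPM per kilobase. Nfil3 and Tef overlapped between samples in the control group, as did Rora and Bhlhe41. In the mimic group the order was the same, but the overlapping neighbours were Bhlhe40 at 41.4 ± 1.67 and Nfil3 at 38.9 ± 1.36 CPM per kilobase (SD, n = 3 each), while Tef at 27.2 ± 0.742 lay below every Nfil3 sample. On this scale the repressors Bhlhe40 and Nfil3 and the activators Tef and Dbp made up most of the signal of the 7 genes, and Bhlhe41 and Hlf were the lowest.

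Promoter sequence is shown for the elements through which these genes are wired to the clock. RefSeq promoters (GRCm38.p6, 250 bases before to 50 after the start site) were found for 6 of the 7 genes, with 2 for Tef and none for Bhlhe40. The E-box CACGTG, on which BMAL1 and CLOCK activate and the DEC proteins repress, occurred in both Tef promoters and in that of Bhlhe41, against 7.15% of all 32851 promoters. The RORE core TNGGTCA, searched on both strands, occurred in the Nfil3 promoter and in the second Tef promoter, as in 3602 of all 32851. The D-box TTANGTAA occurred in 0 of these 7 promoters, against 2.32% of all, and the promoters of Dbp, Hlf and Rora held none of the 3 elements in this window. No 2 of the matches overlapped. Each line below reads along the strand of the gene, with the element in capitals. The RORE core of Nfil3, which matches on the opposite strand, begins 12 bases before the start site, at chr13:52981045-52981051. The E-boxes of Tef begin 127 and 138 bases before their start sites, at chr15:81802546-81802551 and chr15:81811276-81811281, and that of Bhlhe41 begins 153 bases before, at chr6:145865568-145865573. Windows and distances follow RefSeq start sites, whereas the loci given above are those of GENCODE. The GENCODE loci of Dbp, Tef, Nfil3 and Bhlhe41 start further upstream. The Nfil3 element and the Tef E-boxes therefore lie inside the loci given above, as does much of the Dbp window.
Nfil3, RORE core: gcgctcggaacTGACCTActaacacacat
Tef, first promoter, E-box: tgctgtggctcCACGTGctgcagctggc
Tef, second promoter, E-box: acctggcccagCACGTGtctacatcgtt
Bhlhe41, E-box: ggtacgttccgCACGTGagctgggtgct

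The core clock genes gave the setting of these values. Of a list of 19 core clock genes, all tested, 11 passed the adjusted p (4 higher, 7 lower), or 57.9% against 46.7% of all genes. None of the 19 was called, against 7.45% of all genes. This list was chosen with earlier results of these data known, so its shares only describe the genes on it. At an unadjusted p under 0.05, 14 of the 19 passed, where 53.1% of all genes did, and 0 with 1.5-fold, where 7.97% did, and DESeq2 and limma-voom called 0. The activator partners moved apart. Arntl, which encodes BMAL1, rose from 24.3 ± 1.55 to 35.9 ± 1.07 CPM (SD, n = 3), and the log2 fold change was 0.56 (SE 0.056, adjusted p = 1.82e-06 from the edgeR test). Clock fell from 89.2 ± 1.25 to 61.1 ± 3.22 CPM (SD, n = 3), and the log2 fold change was -0.55 (SE 0.04, adjusted p = 8.64e-08 from the edgeR test). Arntl was called without control replicate 1 and with no TMM scaling.

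Genes with known RORE control did not move as one. Besides Arntl, Clock and Nfil3, the log2 fold change was 0.37 for Npas2, a CLOCK paralog (adjusted p = 0.0539 from the edgeR test), and 0.02 for the repressor gene Cry1 (adjusted p = 0.798), and neither passed. Nr1d1, whose product represses at the RORE, fell from 28.7 ± 0.834 to 24.6 ± 0.587 CPM (SD, n = 3), with a log2 fold change of -0.22 (SE 0.051, 95% CI -0.33 to -0.11, adjusted p = 0.00299 from the edgeR test).

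**Figure D3:**
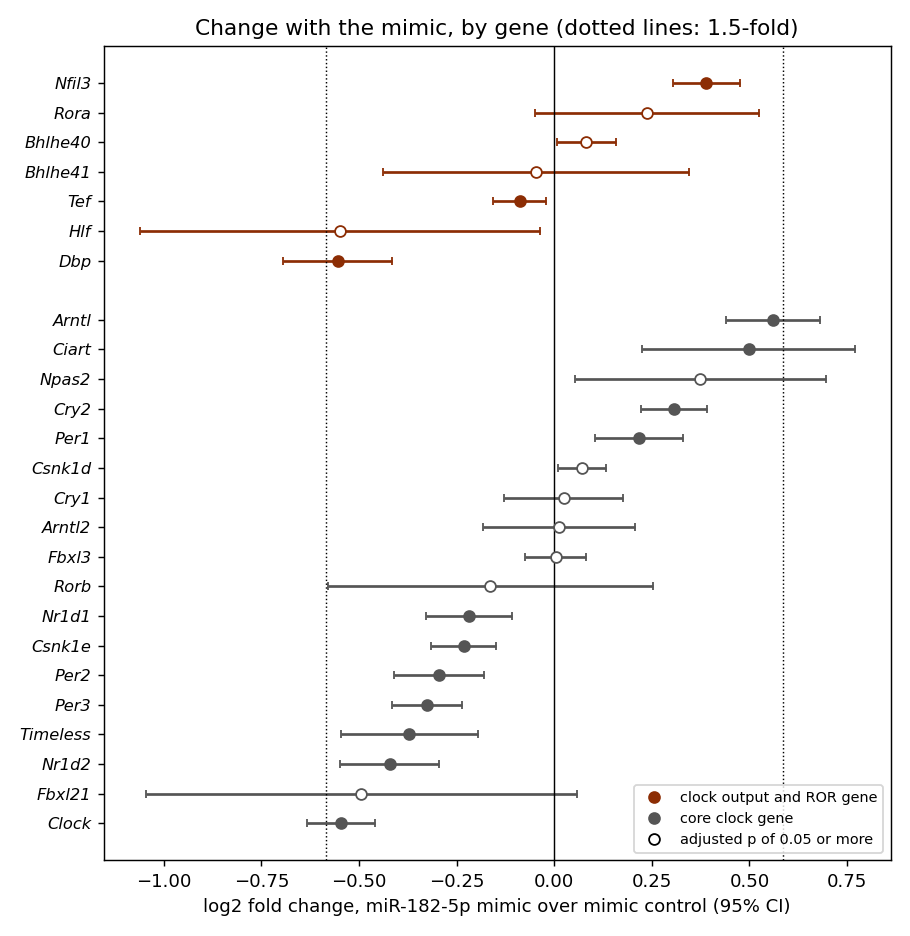
Log2 fold change of miR-182-5p mimic over mimic control with its 95% CI for the 7 clock output and ROR genes (brown) and core clock genes of the list of 19 (grey, with Ciart listed in the files as Gm129 and 1 gene not shown). Filled points had an adjusted p under 0.05 and the dotted lines mark 1.5-fold. Dbp, at -0.55, and Arntl, at 0.56, come close to these lines, and no point lies beyond them.

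Of 13 clock-controlled genes outside these lists, all tested, 12 passed the adjusted p (5 higher, 7 lower), against 46.7% of all genes, and 3 were called, against 7.45%. The list holds genes known to follow the clock in some tissue. It was chosen with earlier results of these data known, so these shares are not a result about clock-controlled genes as a set. Avpr1a, a vasopressin receptor gene, went up from 15.6 ± 0.511 to 36.2 ± 0.487 CPM (SD, n = 3), and the log2 fold change was 1.21 (SE 0.052, adjusted p = 3.55e-10 from the edgeR test). Ppp1r3c, which encodes a subunit that directs protein phosphatase to glycogen, fell from 31.9 ± 3.13 to 18.4 ± 2.24 CPM (SD, n = 3), and the log2 fold change was -0.80 (SE 0.087). Lonrf3, a RING finger gene, fell from 3.64 ± 0.236 to 1.68 ± 0.0885 CPM (SD, n = 3), and the log2 fold change was -1.11 (SE 0.14). The median log2 fold change of the 13 genes was -0.11.

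Since none of the 7 genes was called, the genes closest in pattern were sought for Nfil3, which had the smallest p. Likeness was the root mean square difference of log2 CPM over the 6 samples, each gene centered on its control mean, among 10326 genes with a mean of at least 5 CPM. The nearest were Lhfp (difference 0.0192), Msi2 (0.0286) and Sltm (0.0295), with log2 fold changes of 0.39, 0.39 and 0.36. They are named for this likeness alone, over 6 samples in 2 groups.

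Levels of cell type markers differed between the groups too, beside 23.5% of all genes lower and 23.2% higher by the adjusted p. Adipocyte markers were abundant in every sample, and the summed level of 10 of them was 7336 to 7691 CPM in the control group and 4979 to 5631 CPM in the mimic group, with 7 lower and 1, Lep, higher. Plin1 and Lipe did not pass, at log2 fold changes of -0.06 and -0.09, while Fabp4 was at -0.68. The sum of 8 progenitor or fibroblast markers was 2172 to 2222 CPM and 1920 to 2065 CPM, with 5 lower and 1 higher. Within it Cd34, Pdgfra and Pi16 were called lower, at log2 fold changes of -1.53, -0.86 and -0.78, against 5.48% of all genes. Thy1 was the 1 higher, at 0.19, Pdgfrb did not pass, at 0.06, and Dpp4 had too few reads to be tested. Of 8 macrophage markers, 5 had at most 10 reads in every sample, Adgre1 (listed as Emr1) and Ptprc among them, and Cd163 was at 0. The sum of the 8 was 12.6 to 14.3 CPM and 11.6 to 14.3 CPM, and within it Lyz2 was called lower (log2 fold change -0.63, adjusted p = 0.0324 from the edgeR test). The 6 endothelial markers summed to 8.13 to 9.27 CPM and 5.09 to 5.74 CPM, with Cldn5 at 0 and Pecam1 at no more than 11 reads. The lower sum came from Tek, which fell from 6.05 to 2.43 CPM, and without Tek the sum was 2.32 to 2.76 CPM and 2.73 to 3.51 CPM, with Kdr at 1.59 and 2.14 CPM (log2 fold change 0.43, adjusted p = 0.0899 from the edgeR test). In bulk samples, fewer cells of a type and less RNA per cell cannot be told apart, and the part of these differences in the values of Dbp, Tef and Nfil3 was not tested.

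**Figure D4:**
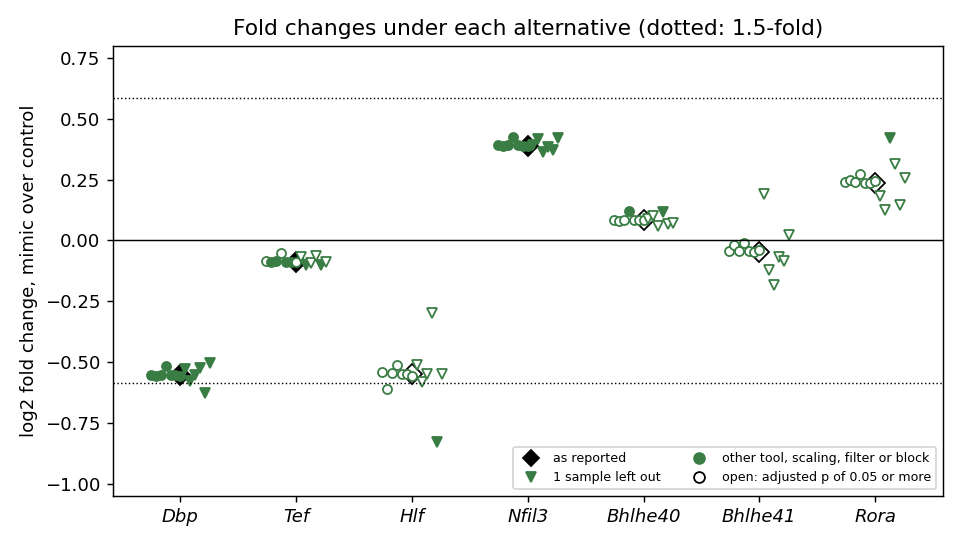
Log2 fold change of each gene as reported (black diamonds), with 1 sample left out (triangles) and with another tool, scaling, filter or the replicate block (circles). Filled symbols had an adjusted p under 0.05 and the dotted lines mark 1.5-fold. Dbp stays between -0.63 and -0.50 and Nfil3 between 0.36 and 0.43, whereas Hlf runs from -0.83 to -0.30 and Bhlhe41 from -0.18 to 0.19.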

How the data were processed

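RNA was sequenced from 6 samples of cultured mouse adipocytes. The deposited values, made by the authors, are unnormalized read counts for each gene in each sample; the submitters' processing notes name bcl2fastq, TopHat2, HTSeq and the mm9 build without versions, and the labels describe stranded poly(A) libraries. Each list closes with 5 tally lines that name no gene (12.7% to 13.0% of uniquely aligned reads outside genes), which were left out. Reads on genes came to 25869810 to 28796712 per sample. Replicates of a group were not copies (chi-square per degree of freedom 2.13 to 7.19). The highest values, 5.01 and 7.19, were those of mimic replicate 1 against mimic replicates 2 and 3.

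Counts were tested in R 4.3.3 with edgeR 4.0.16 (TMM, filterByExpr with a minimum count of 10, glmQLFit, glmQLFTest, two-sided), in a fit of 2 groups with no block, and the scripts were tested on simulated data. CPM used TMM-scaled library sizes; 0.1 was added before log2 for likeness and correlations. Alternatives were DESeq2 1.42.0, limma-voom 3.58.1, other scalings and filters, the replicate block, no fold cutoff and leaving out each sample. Gene models were GENCODE M21 (GRCm38), so coordinates are not those of mm9. The genes and lists were chosen with earlier results of these data known. Named were the 7 genes, called members of the clock lists, Nr1d1, Arntl, Clock, Cry1 and Npas2, and the 3 genes nearest to Nfil3; Ciart and single markers were named after their values were seen. Of the core clock list, 1 gene counted in its totals is not reported here. Python 3.11.15 drew the figures.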

Additional observations from a re-analysis of the deposited data

How the results depend on the processing

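Dbp and Nfil3 kept their direction and their side of the adjusted p in all 13 alternatives. Leaving out 1 sample at a time gave log2 fold changes of -0.63 to -0.50 for Dbp, -0.10 to -0.065 for Tef, -0.83 to -0.30 for Hlf, 0.36 to 0.42 for Nfil3, 0.060 to 0.12 for Bhlhe40, -0.18 to 0.19 for Bhlhe41 and 0.12 to 0.42 for Rora. In these fits 0 to 2 of the 7 genes were called (Dbp and Hlf, both without mimic replicate 2), 0 to 1 of the core clock genes (Arntl, without control replicate 1), and 902 to 1011 of all genes. Bhlhe41 changed sign without control replicate 1 (0.19) and without mimic replicate 3 (0.02). Tef no longer passed the adjusted p with DESeq2 (-0.086), with no TMM scaling (-0.051) and with the replicate block (-0.088, adjusted p = 0.0619). With no TMM scaling Bhlhe40 passed (0.12) and 1 core clock gene, Arntl, was called. Without the fold cutoff 6124 genes, 3 of the 7 and 11 core clock genes passed. The cause of these changes was not tested, other than that fewer samples or no fold cutoff alter the counts by construction. The labels do not say what the replicate numbers stand for, and no sign of pairing was seen. Deviations of same-numbered samples had a mean correlation of -0.102, against 0.0508 for different numbers. Deviations from a group mean cancel within the group, so these means are tied and the second is no separate check. The replicate block left 925 genes called, against 977, and moved no other gene of the 7 across the adjusted p. Depth limits Hlf, with 21 to 44 reads, and Bhlhe41, with 54 to 86.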

Other observations

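Bhlhe40 and Bhlhe41 are known to respond to low oxygen, and several clock genes, Per1 among them, to glucocorticoids, so lists of both responses were counted. Of 10 hypoxia-response genes, all tested, 5 rose and 2 fell by the adjusted p of edgeR's quasi-likelihood test, 0 were called, and the median log2 fold change was 0.18. Of 6 glucocorticoid-response genes, Per1 included and all tested, 3 rose and 2 fell, 0 were called, and the median was 0.16. Of all genes tested, 23.2% rose, 23.5% fell and 7.45% were called, so 0 called in lists this short is not a result. Both lists were chosen with earlier results of these data known, and their counts only describe the genes on them.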
